A study of Mus musculus with 8 samples.

Results

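The mitophagy receptors and regulators measured here were 10 genes, namely Pink1, Bnip3, Bnip3l, Fundc1, Optn, Sqstm1, Bcl2l13, Phb2, Usp30 and Tbk1. They were chosen by gene symbol from a table of read counts for hematopoietic stem cells (HSCs), and all 10 had a row among its 22065 named genes. The rule used the symbols alone, and no count. The study deleted Mitol, the gene of a ubiquitin ligase in the outer mitochondrial membrane that is listed as Marchf5, and asked by RNA-seq how gene expression in HSCs differed after its loss. There were 4 Mitol KO and 4 control libraries, each made from 100 sorted cells of C57BL/6 bone marrow, from mice labelled as 8 to 10 weeks old. HSCs were sorted as lineage-negative cells that were positive for CD150 and EPCR and negative for CD48, and the study's definition of long-term HSCs also includes CD117, the product of Kit.

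Mitol KO mice carried Mitol Flox/Flox and MX1-cre, and control mice were Mitol Flox/Flox without cre. Mice of both groups received Poly:IC, an inducer of interferon that switches on MX1-cre, and were analysed at 1 week, so that the controls shared the floxed alleles and the interferon stimulus. MX1-cre acts across blood cells and in other interferon-responsive tissues, so the deletion was not limited to HSCs. The labels do not say that libraries came from separate animals, and the p-values therefore measure only the spread between these samples, which may be technical.

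Mitophagy is the removal of mitochondria by autophagy. In the ubiquitin-dependent route the kinase PINK1 accumulates on damaged mitochondria and phosphorylates ubiquitin, after which adaptors such as optineurin and p62 bind the ubiquitin chains and the autophagosome. In the receptor route, membrane proteins of the mitochondrion such as BNIP3, NIX, FUNDC1, BCL2L13 and prohibitin 2 bind LC3 or GABARAP directly. Both routes have been studied in HSCs, which rely on the clearance of mitochondria to maintain themselves, and MITOL is known to ubiquitylate FUNDC1 in hypoxic cells.

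Counts on named genes ran from 7214935 to 12398138 per library, and a member had between 47 and 1831 counts in a library. HSC genes were detected, with all 11 on the list tested, and 2 of them were lower in Mitol KO HSCs. These were Kit, the receptor of stem cell factor, with a log2 fold change of -0.75 (edgeR, adjusted p = 0.00705), and Hlf, an HSC transcription factor, at -0.79 (edgeR, adjusted p = 0.00381). Slamf1, the gene of the sort marker CD150, gave 0.56 without overlap of the groups (edgeR, adjusted p = 0.0501), and Ly6a, the gene of Sca-1, gave 0.76 (edgeR, adjusted p = 0.0606). DESeq2 called 4 of these 11 genes, Slamf1 and Ly6a among them (adjusted p = 0.0117 and 0.0107). Log2 fold changes were positive for these 2 alone and negative for the other 9, with a median of -0.13. The summed HSC list was 25650 to 29690 in Mitol KO and 33840 to 39140 in control libraries, without overlap. Marchf5 did not separate the groups, at 232 to 308 normalized counts in Mitol KO and 262 to 333 in control libraries (log2 fold change -0.15, standard error 0.13, edgeR, adjusted p = 0.498). Counts per gene do not tell deleted from remaining exons. Mitol KO replicate 3 stood apart in red-cell RNA, with 388 normalized counts of Hba-a1, 1048 of Hbb-bs and 1387 of Slc4a1, where no other library had more than 7.91, 19.7 and 13.2. Other erythroid genes were as high in Mitol KO replicate 4, with 138 and 249 normalized counts of Ermap in replicates 3 and 4 against at most 19.7 elsewhere. The erythroid transcription factor genes gave 92.5 and 103 for Klf1 and 297 and 305 for Gata1 in these replicates, the 2 highest values of each. Of 12 erythroid genes, 11 had a row, 7 were tested, and 2 were higher, Hbb-bt (log2 fold change 1.29, edgeR, adjusted p = 0.0442) and Gata1 (3.30, edgeR, adjusted p = 0.00381). The summed erythroid list was 5363 to 8961 in Mitol KO and 4820 to 6492 in control libraries. Lists of neutrophil, B-lineage, T-cell, monocyte and macrophage, and mast-cell and basophil genes held 2, 1, 2, 4 and 1 tested genes, with 0 past the threshold in each by edgeR. At an unadjusted p under 0.05 they held 1, 0, 0, 0 and 0, and by DESeq2 the same numbers were past the adjusted threshold. Of the neutrophil genes with counts too low for the test, S100a9 was at 2.64 to 21.3 normalized counts in control libraries. It was at 0 in all 4 Mitol KO libraries. S100a8 was at 31.9, 19.8 and 51.2 in control replicates 2 to 4 and at most 1.57 elsewhere. The neutrophil list as a whole went the other way, with positive log2 fold changes for both tested genes (median 0.38). Its sum was 485, 608, 853 and 1023 in Mitol KO replicates 1 to 4 and 405 to 616 in control libraries. Cell cycle genes were higher in Mitol KO HSCs in 14 of 20 cases, with a median log2 fold change of 1.16. Their summed level was 40210, 41660, 28190 and 20100 in Mitol KO replicates 1 to 4 and 13260 to 19090 in control libraries, so that Mitol KO replicate 4 was nearest the controls.

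Of the 10 members, 1 was higher in Mitol KO HSCs, 0 were lower and 9 did not pass the threshold, an adjusted p under 0.05 by the quasi-likelihood test of edgeR. The gene that rose was Bcl2l13, by a fitted fold of 1.37. Across all 16444 genes tested, 8.43% passed (4.68% higher and 3.75% lower), and 1 in 10 members is close to that share. At an unadjusted p under 0.05 there were 3 members, Bcl2l13, Phb2 and Optn, with positive log2 fold changes in each. The share of all genes at that unadjusted level is not given here, so counts at that level have no baseline beside them. DESeq2 called 2 of the members, Bcl2l13 and Phb2, where it called 8.19% of all genes higher and 5.85% lower. Log2 fold changes were positive for 5 members and negative for 5, with a median of -0.03, beside a median of -0.02 and 47.7% positive over all genes. The summed level of the 10 members was 6495 to 6841 normalized counts in Mitol KO and 5999 to 6507 in control libraries. In bulk libraries, fewer cells of a type and less RNA per cell cannot be told apart.

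**Figure D1:**
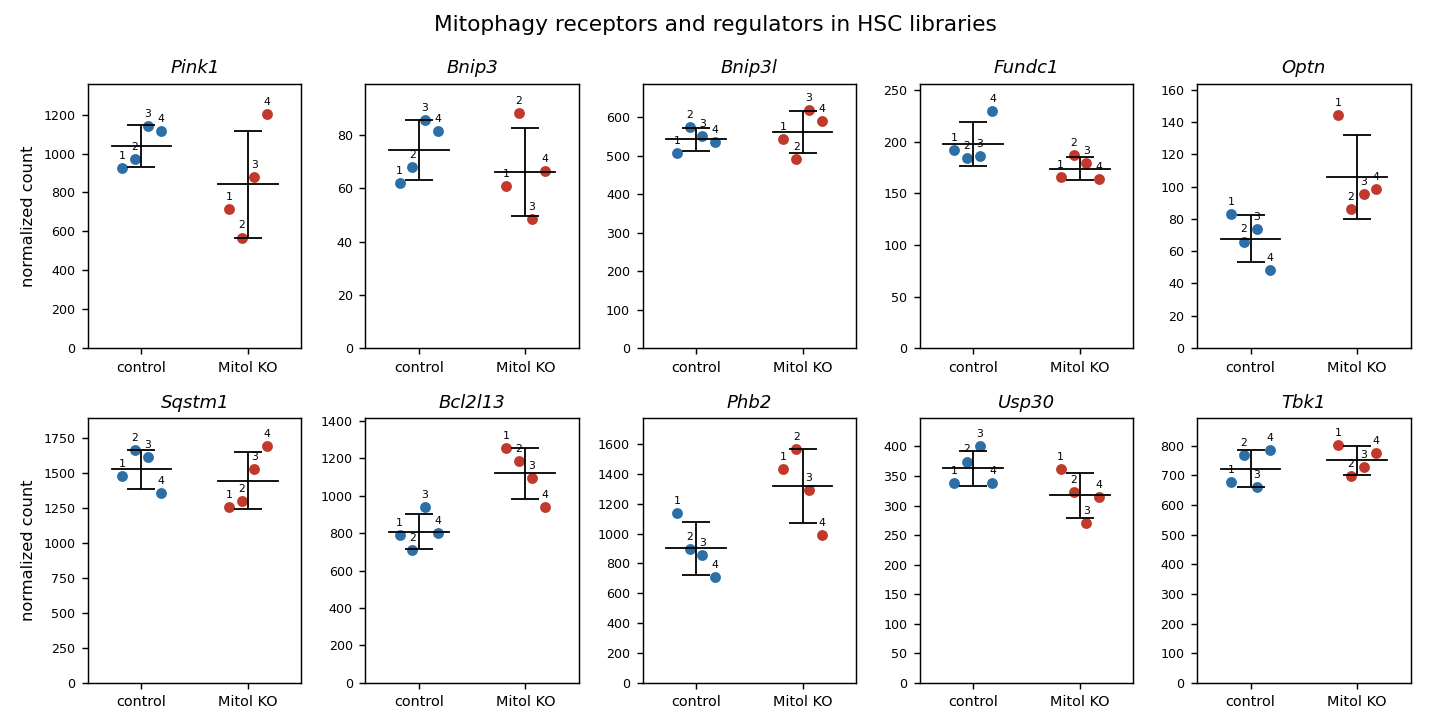
Normalized counts (counts divided by size factors, linear axes from 0) of the 10 members in 4 control (blue) and 4 Mitol KO (red) libraries, numbered by replicate, with mean and SD. Bcl2l13 and Optn separate the groups, Phb2 nearly does, and the other 7 members overlap.

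Among receptors of the outer mitochondrial membrane, Bcl2l13 encodes a BCL2-family protein with an LC3-binding motif that also promotes mitochondrial fragmentation. The gene lies on chromosome 6 of GRCm39, on the plus strand from 120813144 to 120891322. Its normalized counts were 1258, 1187, 1096 and 941 in Mitol KO replicates 1 to 4 and 789, 708, 938 and 800 in control replicates 1 to 4. Every Mitol KO library was above every control library, although the lowest Mitol KO value, in replicate 4, was only just above the highest control value, in replicate 3. The means were 1120 ± 137 and 809 ± 95.7 (SD, n = 4), and the fold fitted by edgeR was 1.37 with a 95% interval of 1.15 to 1.62 (log2 fold change 0.45, standard error 0.11, edgeR, adjusted p = 0.0341, higher in 4 of 4 libraries). Groups without overlap were seen for 2 members, Bcl2l13 and Optn, both higher, and for 15.4% of all genes (8.17% higher and 7.18% lower). The 2-sided exact permutation test of Bcl2l13 gave p = 0.0286 without adjustment, the smallest that 4 against 4 libraries allow. The call was kept under all 6 other normalizations, filters and tools tried with 8 libraries. It was lost, at edgeR adjusted p-values of 0.0929, 0.0877 and 0.0699, without Mitol KO replicate 1, 2 or 3, and at 0.0592, 0.101 and 0.0822 without control replicate 1, 2 or 4, while the log2 fold change stayed between 0.39 and 0.55.

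Part of the Bcl2l13 gene is shared with its neighbour Bid, the gene of a BH3-only death protein on the opposite strand. In GENCODE vM39, 3059 exonic bases of Bcl2l13, 26.2% of its exon length, were also exonic in Bid. The strand setting of the counting is not given in the sources used here. The paper describes libraries made with a Nextera XT kit from double-stranded cDNA, and names no step that keeps the strand of the RNA. Bid had 250 to 298 normalized counts in Mitol KO and 301 to 422 in control libraries (log2 fold change -0.25, standard error 0.14, edgeR, adjusted p = 0.283). Reads on the shared bases were not counted apart, and their part in the counts of Bcl2l13 and Bid was not tested.

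Phb2 encodes prohibitin 2, a scaffold protein of the inner membrane that becomes an LC3 receptor once the outer membrane is broken. It lies on the same chromosome, on the plus strand from 124689299 to 124693913. Its normalized counts were 1433, 1567, 1293 and 990 in Mitol KO and 1138, 898, 855 and 709 in control replicates 1 to 4. Mitol KO replicates 1 to 3 were above all controls, and replicate 4 was below control replicate 1. The means were 1321 ± 247 and 900.2 ± 178 (SD, n = 4), and the fitted fold was 1.45 with a 95% interval of 1.15 to 1.83 (log2 fold change 0.54, standard error 0.16, edgeR, adjusted p = 0.0527, higher in 3 of 4 libraries). Phb2 thus missed the threshold narrowly, and its exact permutation p was 0.0571 (2-sided, unadjusted). It passed with the size factors of DESeq2 in edgeR (adjusted p = 0.0489), in DESeq2 (adjusted p = 0.0134) and in limma-voom (adjusted p = 0.0487). It also passed in edgeR without Mitol KO replicate 4 (log2 fold change 0.67, adjusted p = 0.00829) and without control replicate 1 (0.68, adjusted p = 0.0300). Phb, the gene of its partner prohibitin 1, had 230 ± 17.7 and 204 ± 16.7 normalized counts (log2 fold change 0.15, standard error 0.13, edgeR, adjusted p = 0.491).

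Optn encodes optineurin, the ubiquitin-binding adaptor that is activated by TBK1. It lies on chromosome 2, on the minus strand from 5022703 to 5068945. Its normalized counts were 144, 86.2, 95.2 and 98.4 in Mitol KO and 83.1, 66.0, 73.5 and 48.5 in control replicates 1 to 4. The groups did not overlap, but Mitol KO replicate 2 and control replicate 1 were close to each other, and Mitol KO replicate 1 lay above the rest. The mean was 106 ± 25.9 against 67.8 ± 14.6 (SD, n = 4), and the fitted fold was 1.55 with a 95% interval of 1.09 to 2.21 (log2 fold change 0.64, standard error 0.23, edgeR, adjusted p = 0.110, higher in 4 of 4 libraries). The exact permutation p was 0.0286 (2-sided, unadjusted), and no setting brought the adjusted p under 0.05. Without Mitol KO replicate 1 the log2 fold change was 0.45 (edgeR, adjusted p = 0.286). Counting error was 10.5% of a value at this depth, against a spread of 24.4% among Mitol KO and 21.6% among control libraries.

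The 3 members with the highest log2 fold changes were compared in the 250 bases before their annotated starts, from the RefSeq promoter table (GRCm38.p6), and are shown to let their motifs be set side by side. Capitals mark CCGGAAG, the core bound by ETS factors, on either strand (read as CTTCCGG on the other strand). The windows were chr6:120835980-120836229 (plus strand) for Bcl2l13, chr6:124712039-124712288 (plus strand) for Phb2 and chr2:5064118-5064367 (minus strand) for Optn.
Bcl2l13: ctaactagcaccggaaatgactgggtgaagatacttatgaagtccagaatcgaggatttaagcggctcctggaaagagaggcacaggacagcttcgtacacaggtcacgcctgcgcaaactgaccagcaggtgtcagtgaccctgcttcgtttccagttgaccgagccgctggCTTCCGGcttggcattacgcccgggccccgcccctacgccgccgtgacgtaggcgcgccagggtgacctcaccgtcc
Phb2: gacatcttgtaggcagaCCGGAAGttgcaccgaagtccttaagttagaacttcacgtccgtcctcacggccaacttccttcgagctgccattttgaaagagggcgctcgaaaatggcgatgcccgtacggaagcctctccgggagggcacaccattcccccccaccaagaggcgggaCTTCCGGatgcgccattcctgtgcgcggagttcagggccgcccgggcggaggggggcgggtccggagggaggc
Optn: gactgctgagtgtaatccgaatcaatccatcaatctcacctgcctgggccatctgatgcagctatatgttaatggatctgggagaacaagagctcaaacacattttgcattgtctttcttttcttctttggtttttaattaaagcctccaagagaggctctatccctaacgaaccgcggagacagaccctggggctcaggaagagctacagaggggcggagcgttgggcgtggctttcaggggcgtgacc
The ETS core was found at position -77 of Bcl2l13 and at positions -233 and -73 of Phb2, counted back from the start, while these letters were not in the Optn window. Usp30 also held it, so that 3 of the 9 members with a promoter in the table did, against 6.91% of all 32851 promoters of that length. Of other motifs searched on both strands, the hypoxia response core, ACGTG or GCGTG, was in 6 of 9 members (Bcl2l13, Bnip3, Optn, Phb2, Pink1 and Tbk1) against 38.6% of promoters. The E-box CACGTG, which contains that core, was in Bnip3 alone (6.02% of promoters). The antioxidant response core TGACNNNGC was in Bcl2l13 alone (10.2%). The FOXO core GTAAACA (3.17%) and the NRF1 core (0.782%) were in 0 of 9. The share of G and C bases had a median of 52.4% over all promoters. It was 57.2% to 72.4% in the members other than Optn, which lay below that median. Whether the ETS and hypoxia response shares differ from those of promoters with a similar G and C content was not tested. The table has no entry used here for Bnip3l.

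The cell cycle list differed between the groups in the same direction as Bcl2l13 and Phb2. Mitol KO replicates 1 and 2, with the highest cell cycle sums, had the 2 highest values of Bcl2l13 and of Phb2, and Mitol KO replicate 4, with the lowest cell cycle sum of its group, had the lowest Mitol KO value of each. Mitol KO replicates 3 and 4, with the highest Klf1 and Gata1 counts, had the 2 lowest Mitol KO values of each. The cell cycle sums of control replicates 1 to 4 were 19090, 15780, 18760 and 13260. Among controls, Phb2 was likewise highest in replicate 1 and lowest in replicate 4. Bcl2l13 did not follow this order, being highest in control replicate 3 and lowest in control replicate 2. The part of cell cycling or of erythroid RNA in the group differences of Bcl2l13 and Phb2 was not tested.

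**Figure D2:**
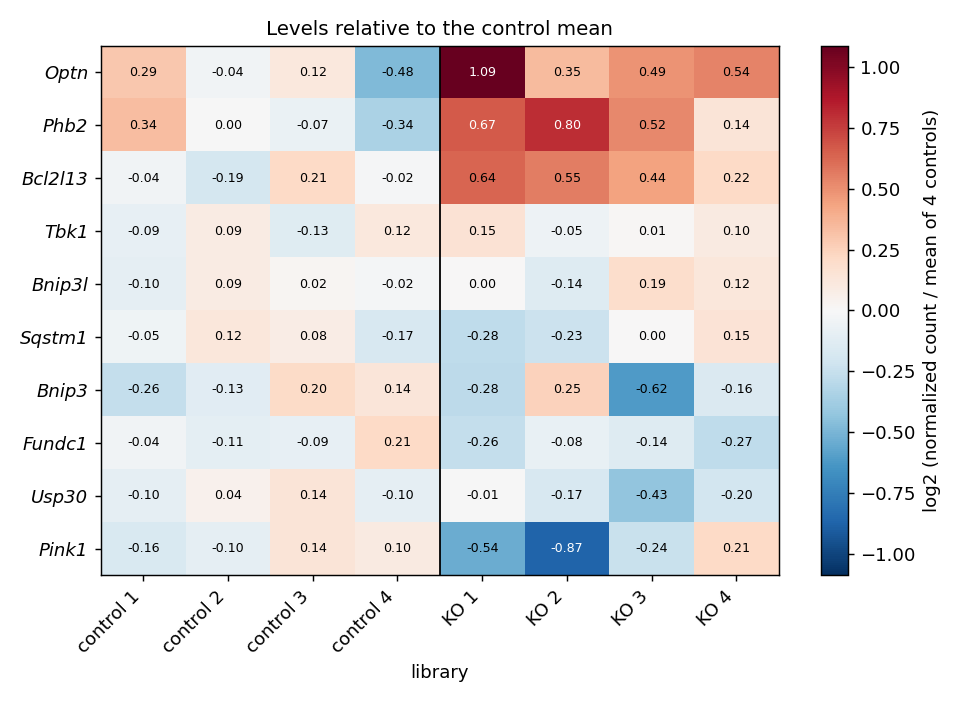
Each cell gives log2 of the normalized count over the mean of the 4 controls, for 10 members (rows) in 8 libraries (columns, controls left of the line). Bcl2l13 runs from 0.22 to 0.64 and Phb2 from 0.14 to 0.80 in Mitol KO libraries, while Pink1 runs from -0.87 to 0.21.

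The other outer membrane receptors did not pass the threshold. Bnip3, a receptor that is induced by hypoxia, had 61.0, 88.3, 48.5 and 66.7 normalized counts in Mitol KO and 62.0, 68.1, 85.7 and 81.7 in control replicates 1 to 4. The groups overlapped, with the highest and the lowest of the 8 values both in Mitol KO libraries (log2 fold change -0.20, standard error 0.23, 95% interval -0.70 to 0.31, edgeR, adjusted p = 0.636). Bnip3l, which encodes NIX and is known for clearing mitochondria from maturing red cells, had 544, 492, 619 and 590 in Mitol KO and 506, 576, 552 and 536 in control replicates 1 to 4. The fitted fold was 1.02 with a 95% interval of 0.871 to 1.20 (log2 fold change 0.03, standard error 0.11, edgeR, adjusted p = 0.882). Its highest value was in Mitol KO replicate 3, the library with the highest Hba-a1, Hbb-bs and Slc4a1 counts. Without that library the log2 fold change was -0.0061 (edgeR, adjusted p = 0.985), and without Mitol KO replicate 2 it was 0.09 (edgeR, adjusted p = 0.664). The part of erythroid RNA in the Bnip3l values was not tested.

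Fundc1, the receptor that MITOL is known to ubiquitylate, had 166, 187, 179 and 164 normalized counts in Mitol KO and 192, 184, 186 and 229.9 in control replicates 1 to 4. Mitol KO replicates 1, 3 and 4 were below all controls, and replicate 2 fell among them. The log2 fold change was -0.21 (standard error 0.14, 95% interval -0.51 to 0.10, edgeR, adjusted p = 0.379, lower in 3 of 4 libraries). The exact permutation p was 0.0857 (2-sided, unadjusted).

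In the ubiquitin-dependent route, Pink1 had the widest spread of the members among Mitol KO libraries. Pink1 lies on chromosome 4, on the minus strand from 138039346 to 138053618. It had 715, 568, 878 and 1204 normalized counts in Mitol KO and 927, 970, 1144 and 1115 in control replicates 1 to 4. Mitol KO replicates 1 to 3 were below every control, and replicate 4 was above every control. The means were 841 ± 273 and 1039 ± 106 (SD, n = 4), and the log2 fold change was -0.32 (standard error 0.19, 95% interval -0.73 to 0.09, edgeR, adjusted p = 0.299, exact permutation p = 0.257). The spread was 32.4% among Mitol KO and 10.2% among control libraries, where counting error was 3.24%. Without Mitol KO replicate 4 the log2 fold change was -0.53 (edgeR, adjusted p = 0.0276). This library also had the lowest cell cycle sum of its group and the highest counts of Ermap, Klf1 and Gata1, and the part of cell cycling or of erythroid RNA in the Pink1 values was not tested. In GENCODE vM39, 37.4% of the exon length of Pink1 was also exonic in Ddost, an oligosaccharyltransferase subunit on the opposite strand. Ddost rose from 1916 ± 231 to 2650 ± 239 normalized counts (SD, n = 4, log2 fold change 0.45, standard error 0.10, edgeR, adjusted p = 0.0223).

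Usp30 encodes the outer membrane deubiquitinase that removes ubiquitin chains from mitochondria. It had 362, 322, 270.0 and 315 normalized counts in Mitol KO and 339, 375, 400.3 and 339 in control replicates 1 to 4. Mitol KO replicates 2, 3 and 4 were below all controls, and replicate 1 was among them (log2 fold change -0.21, standard error 0.12, 95% interval -0.48 to 0.05, edgeR, adjusted p = 0.289). Of its exon length, 32.2% was also exonic in Alkbh2 on the opposite strand, a DNA repair gene with 32.4 ± 7.08 and 34.0 ± 12.1 normalized counts in Mitol KO and control libraries (SD, n = 4).

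The remaining adaptor and its kinase gave close values in both groups. Sqstm1 encodes p62, an adaptor of ubiquitin and LC3, and had 1259, 1300, 1531 and 1696 normalized counts in Mitol KO and 1480, 1663, 1612 and 1355 in control replicates 1 to 4. The groups overlapped, and the log2 fold change was -0.10 (standard error 0.11, 95% interval -0.34 to 0.15, edgeR, adjusted p = 0.629). Of the Sqstm1 exon length, 17.2% was also exonic in Mrnip, a protein-coding gene on the opposite strand. Tbk1, the kinase that phosphorylates optineurin and p62, had 804, 696, 728 and 776 normalized counts in Mitol KO and 678, 768, 660.3 and 785 in control replicates 1 to 4. Its log2 fold change was 0.04 (standard error 0.10, 95% interval -0.18 to 0.25, edgeR, adjusted p = 0.850). For Sqstm1, Tbk1 and Bnip3l the 95% intervals lay within -0.34 to 0.26, which bounds a difference but does not show that levels were equal.

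**Figure D3:**
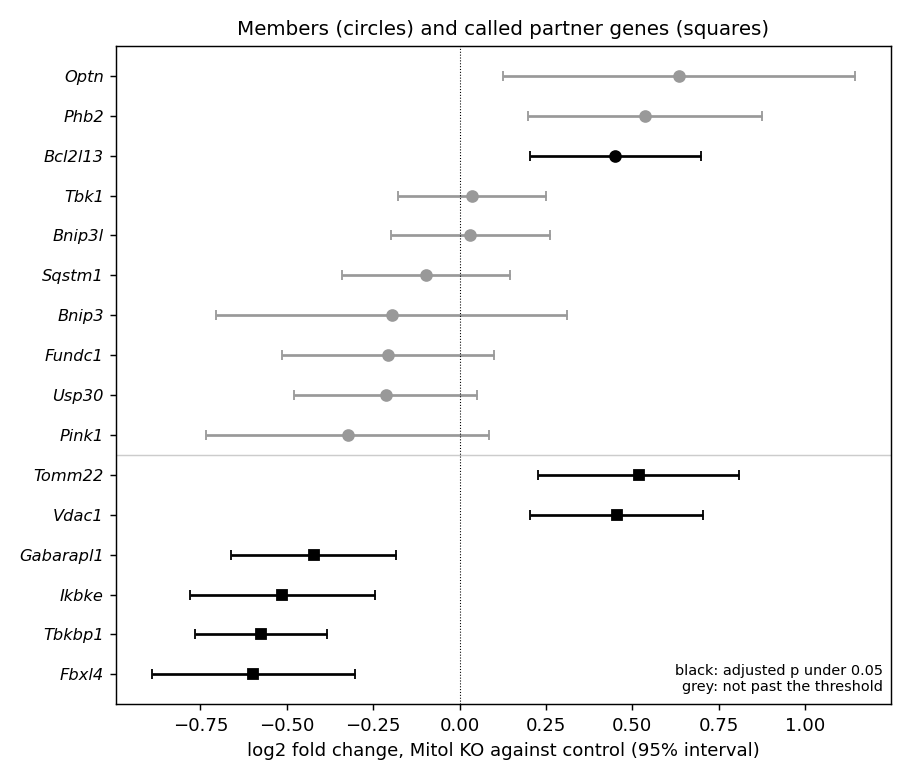
Log2 fold change of Mitol KO against control libraries with 95% intervals, for members (circles) and the 6 partner genes past the threshold (squares), black where the edgeR adjusted p was under 0.05. Among the members Bcl2l13 is black, while the intervals of Optn and Phb2 also lie above 0, and Fbxl4 has the lowest value at -0.60.

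Levels of different members were compared per kilobase of annotated exon. In control HSCs the order by mean normalized count per kilobase was Pink1 (257), Phb2 (242), Sqstm1 (186), Tbk1 (128), Bnip3l (98.6), Bcl2l13 (69.2), Usp30 (52.8), Fundc1 (44.4), Bnip3 (17.2) and Optn (5.99). Pink1, at 229 to 283 in control libraries, was not apart from Phb2 at 191 to 306, nor Phb2 from Sqstm1 at 165 to 203. In Mitol KO HSCs Phb2 came first at 355 per kilobase, followed by Pink1 at 208, Sqstm1 at 176 and Tbk1 at 132. Bcl2l13 stood at 95.9 per kilobase, close to Bnip3l at 102, and Optn stayed last at 9.37. These levels depend on the exon length used, which counts every annotated exon of a gene.

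**Figure D4:**
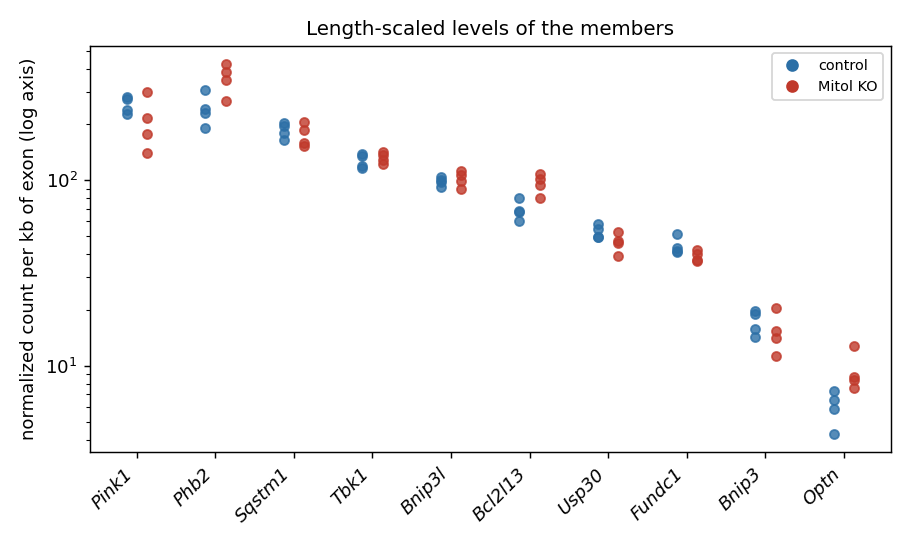
Normalized count per kilobase of exon (log axis) of each member in the 4 control (blue) and 4 Mitol KO (red) libraries, ordered by the control mean. Control means fall from 257 for Pink1 to 5.99 for Optn, and neighbours such as Pink1 and Phb2 overlap.

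Partner genes of the members were described from 5 lists with 56 genes, of which 55 were tested. In all, 2 were higher and 4 lower in Mitol KO HSCs, which is 10.9% against 8.43% of all genes, with a median log2 fold change of 0.04. On the list of the PINK1 axis, 2 of 19 rose, 0 fell and 17 did not pass, with a median of 0.20. The genes that rose were Tomm22 and Vdac1. Tomm22 encodes an outer membrane import receptor on which PINK1 entry depends, with 485 ± 82.5 against 334 ± 27.8 normalized counts (SD, n = 4, log2 fold change 0.52, standard error 0.13, edgeR, adjusted p = 0.0356). Vdac1 encodes an outer membrane channel for metabolites, with 1588 ± 259 against 1144 ± 90.4 normalized counts (SD, n = 4, log2 fold change 0.45, standard error 0.12, edgeR, adjusted p = 0.0345). The Mitol KO libraries were above all controls in both genes. Each call was kept in all settings with 8 libraries but, when 1 library was left out, in the fit without Mitol KO replicate 4 alone. In the other 7 such fits the edgeR adjusted p was 0.0519 to 0.101 for Tomm22 and 0.0539 to 0.104 for Vdac1.

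Among kinases, phosphatases and stability factors of the receptors, 0 of 11 rose and 1 fell. This was Fbxl4, the substrate adaptor of a ubiquitin ligase that keeps BNIP3 and NIX low. It had 192, 188, 202 and 214 normalized counts in Mitol KO and 291, 302, 251 and 344 in control replicates 1 to 4, without overlap (log2 fold change -0.60, standard error 0.14, edgeR, adjusted p = 0.0235). The call was lost without Mitol KO replicate 1, 2 or 3 and without control replicate 2 or 4, at edgeR adjusted p-values of 0.0592 to 0.0683. Ulk1, the kinase that starts autophagy and phosphorylates FUNDC1, gave -0.26 on the log2 fold change scale (standard error 0.12, edgeR, adjusted p = 0.215). Without Mitol KO replicate 4 this was -0.38 (edgeR, adjusted p = 0.0189).

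Of 8 partners of TBK1, 2 fell. Tbkbp1 encodes an adaptor that binds TBK1, and had 850.0 to 1033 normalized counts in Mitol KO and 1325 to 1469 in control libraries (log2 fold change -0.57, standard error 0.09, edgeR, adjusted p = 0.00568). This call was kept whichever library was left out. Ikbke, which encodes the kinase most like TBK1, had 850.0, 888, 959 and 1219 in Mitol KO and 1183, 1457, 1416 and 1456 in control replicates 1 to 4. Mitol KO replicate 4 was above control replicate 1, so the groups overlapped (log2 fold change -0.51, standard error 0.12, edgeR, adjusted p = 0.0281). The Ikbke call held without Mitol KO replicate 4 or control replicate 1, and in the other 6 fits with 1 library left out its edgeR adjusted p was 0.0664 to 0.0830.

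Of the 5 ATG8 proteins, which the receptors bind on the autophagosome, 1 fell. Gabarapl1 had 456, 458, 443 and 545 normalized counts in Mitol KO and 667, 600.1, 690 and 560.4 in control replicates 1 to 4, with Mitol KO replicate 4 close to control replicate 4 (log2 fold change -0.42, standard error 0.11, edgeR, adjusted p = 0.0370). The call was lost without the low-count filter (adjusted p = 0.0535) and in 6 fits with 1 library left out, those without Mitol KO replicate 1, 2 or 3 or control replicate 1, 2 or 3 (edgeR, adjusted p = 0.0727 to 0.108). An lncRNA gene on the opposite strand shares 31.0% of the Gabarapl1 exon length. Map1lc3b, the LC3 gene with the highest count, was not past the threshold at a log2 fold change of -0.12 (edgeR, adjusted p = 0.558), and it was named after its values were seen.

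Of 13 other receptors and adaptors, 12 were tested and 0 passed by edgeR or DESeq2, with 2 at an unadjusted p under 0.05. Their median log2 fold change was -0.03. Atad3a, which is known to promote the import and breakdown of PINK1, had 751 ± 124 against 696 ± 77.8 normalized counts (SD, n = 4, log2 fold change 0.09, standard error 0.13, edgeR, adjusted p = 0.692).

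**Figure D5:**
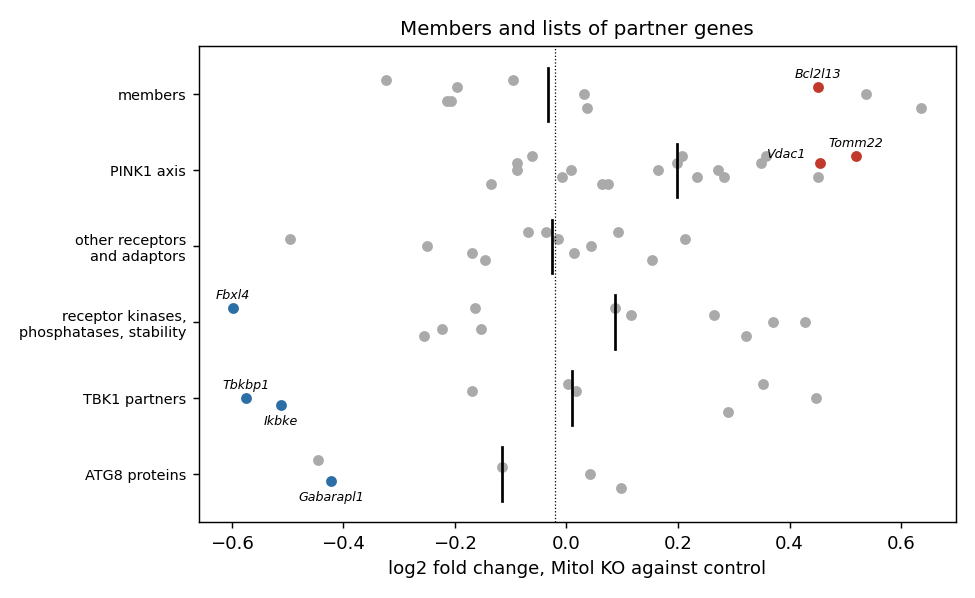
Log2 fold changes of Mitol KO against control libraries for the members and 5 lists of partner genes, 1 point a gene, red for higher and blue for lower at an edgeR adjusted p under 0.05. Thick bars are list medians, from -0.12 for the ATG8 proteins to 0.20 for the PINK1 axis, and the dotted line is the median of all genes at -0.02.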

How the data were processed

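RNA-seq was done on 4 Mitol KO and 4 control libraries. The authors aligned single-end reads to mm39 with STAR, merged files with SAMtools and deposited Subread counts per gene without normalization. The annotation and strand setting are not given in the sources used here. The paper's library method, from double-stranded cDNA, names no step that keeps the strand. How shared exons affected the counts was not tested. The table held 23094 rows with at least 11 counts each over the libraries. Of these, 1029 carried no symbol (0.335% to 0.467% of counts) and were left out.

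Counts were tested in R (version 4.3.3) with edgeR (version 4.0.16), by its quasi-likelihood method with TMM, the default low-count filter, group as the only term and Benjamini-Hochberg adjustment over 16444 genes at 0.05. Normalized counts are counts over size factors of DESeq2 (version 1.42.0). Each member was also compared by a 2-sided exact permutation test of mean normalized counts (70 arrangements, 10 tests, p-values unadjusted). Levels per kilobase and shared exons used GENCODE vM39, in which genes on opposite strands can share exon positions. Alternatives were DESeq2 size factors, DESeq2, limma-voom (limma version 3.58.1), no filter, a filter of 1 CPM in 4 libraries, the replicate number as a block, and each library left out. Fits were tested on simulated counts, with 50 genes changed at each fold, all above a minimum expression level. There edgeR recovered 50% of genes changed 1.5-fold and 92% of genes changed 2-fold. Of the calls made there at 0.05, 9.52% were false with edgeR (16161 genes) and 20.8% with DESeq2 (16444 genes).

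The members and lists were chosen with earlier results of these data known. Named were all members, list genes past the threshold (at most 6 per list), and Marchf5, Atad3a and Ulk1. Some list genes are not reported here and were left out of the lists. HSC and other cell type genes were named as a check of the cells. Erythroid genes were also set beside Bcl2l13, Phb2, Bnip3l and Pink1, a use beyond that check and made with their values known. Bid, Ddost, Alkbh2, Phb and Map1lc3b were added after their values were seen. Counting error covers reads only, as copies of a molecule were not told apart by molecular identifiers.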

Additional observations from a re-analysis of the deposited data

Results flagged for a closer look

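Of 44 groups of 4 libraries, for 22 named genes, 2 held a library far from the other 3 by Dixon's criterion, which chance gives in about 1 group in 20. Ikbke, the kinase related to TBK1, was at 1183 normalized counts in control replicate 1, where the other controls were at 1416 to 1457. Gabarapl1, an ATG8 gene, was at 544.9 in Mitol KO replicate 4, where the other Mitol KO libraries were at 443 to 458. In both genes the library that stood apart lay on the side of the other group.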

How the results depend on the processing

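With 8 libraries kept, the number of genes past the threshold was 1257 to 2315, the highest with DESeq2 (2315). The count of members was 2 with DESeq2 size factors, DESeq2, limma-voom and the replicate block, Phb2 being added to Bcl2l13 in each. DESeq2 called 3 receptor kinases, phosphatases and stability factors (2 higher and 1 lower), 4 TBK1 partners (2 higher and 2 lower) and 1 erythroid gene (higher). ATG8 proteins had 0 calls without the filter and with the replicate block. The NRF2 list had 2 with DESeq2 size factors, DESeq2, no filter and the replicate block. The labels do not say whether the replicate numbers pair the samples, and weak correlations cannot decide it. Deviations of same-numbered libraries correlated at 0.08, -0.07, 0.05 and 0.07. Of 4 Mitol KO libraries, 2 correlated best with a control of another number. With the block, the edgeR adjusted p of Phb2 was 0.0140 and that of Gabarapl1 0.0556.

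With 1 library left out, the count of all genes was 359 to 2501 (565, 492, 520 and 2501 without Mitol KO replicates 1 to 4, and 359, 811 and 510 without control replicates 2 to 4). Members numbered 0 to 3, with 3 without Mitol KO replicate 4 and 0 without Mitol KO replicate 1, 2 or 3 or control replicate 2 or 4. Counts were 0 to 4 for the PINK1 axis, 0 to 1 for other receptors and adaptors and 0 to 4 for receptor kinases. They were 1 to 3 for TBK1 partners, 0 to 1 for ATG8 proteins and 1 to 3 for the HIF1 list. They were 0 to 3 for the NRF2 list, 1 to 3 for erythroid genes and 5 to 19 for cell cycle genes. The sign turned for Bnip3l (-0.0061 to 0.0944) and Tbk1 (-0.0042 to 0.0811), the latter without control replicate 3, neither of which passed the threshold in any fit. The cause of these changes was not tested, beyond the smaller number of samples in such fits. In simulated counts with 4 libraries a group, edgeR missed 50% of genes changed 1.5-fold. Far fewer genes were changed there, 50 at each fold, than the 1386 called here, so the adjusted threshold was stricter in the simulation. That rate therefore cannot be carried over to Bcl2l13, Phb2 and Optn.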

Other observations

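Lists for the transcription factors that are known to induce some members were also measured. They held genes of the factors themselves and of their regulators beside target genes. Bnip3 and Bnip3l are known targets of HIF1, the hypoxia factor. Of 19 other HIF1 genes, all tested, 2 were higher and 0 lower in Mitol KO HSCs, a share near the 8.43% of all genes called, with a median log2 fold change of 0.11. Ldha, lactate dehydrogenase A, had 6930, 6991, 6168 and 5592 normalized counts in Mitol KO and 3590, 3379, 3379 and 2857 in control replicates 1 to 4, with no overlap (log2 fold change 0.94, standard error 0.10, edgeR, adjusted p = 0.00134, higher in 4 of 4 libraries). Bhlhe40, a transcriptional repressor, had 249.7 to 646 in Mitol KO and 93.4 to 215 in control libraries (log2 fold change 1.34, standard error 0.32, edgeR, adjusted p = 0.0270). Its adjusted p was 0.0686 without Mitol KO replicate 3, 0.0688 without control replicate 2 and 0.0687 without control replicate 4 (edgeR).

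Sqstm1 is a known target of NRF2, the oxidative stress factor. Of 12 NRF2 genes, all tested, 1 was higher and 0 lower, also near the 8.43% of all genes, with a median log2 fold change of 0.14. Hmox1, heme oxygenase 1, had 282, 408, 263 and 195 normalized counts in Mitol KO and 56.7, 73.4, 90.4 and 164 in control replicates 1 to 4, with no overlap (log2 fold change 1.54, standard error 0.31, edgeR, adjusted p = 0.0158, higher in 4 of 4 libraries). Without control replicate 2 its adjusted p was 0.0548 (edgeR).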
